A study of Homo sapiens with 27 samples.

Results

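DNA replication is prepared in G1 and carried out in S phase, and the 45 genes described here encode its machinery. In G1 the origin recognition complex, CDC6 and CDT1 load the MCM helicase onto DNA as an inactive ring. At the start of S phase CDC45 and the GINS complex turn that ring into a moving helicase, after which primase and polymerases copy the strands behind a PCNA clamp. The cyclin E genes and E2F1 belong to the switch that commits a cell to this step, and E2F factors are known to bind the promoters of many replication genes, which are therefore transcribed together as cells cycle. The genes were taken by name, for their function, with earlier results of these data known. They are 45 of 61533 genes listed in the count table, and comprise 10 genes of origin licensing, 6 of helicase activation, 8 polymerase and primase subunits, 6 genes of the sliding clamp and its loaders, 3 of single-strand binding and Okazaki fragment maturation, 4 of deoxynucleotide supply, 3 G1/S regulators and 5 of replication-coupled chromatin and fork checkpoint.

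The genes were followed in 27 RNA-seq libraries of 92.1 cells, a human uveal melanoma line grown in RPMI medium with serum. Cells received the FAK inhibitor VS-4718 (FAKi) at 100 nM or the solvent DMSO, with medium and treatment renewed at intervals, and were collected on days 3, 7, 14 and 21, while day 0 was collected with DMSO only. FAK is a tyrosine kinase of focal adhesions, and the time course was run to follow the effect of its inhibition over time. Each of the 9 groups held 3 libraries, all from this single cell line. The methods of the study describe both parallel wells and biological repeats of the whole time course. The labels do not say which of these the replicate numbers mark, so p-values measure the spread between these libraries.

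Libraries held 12161994 to 43651551 counts with a median of 24759579, and the 45 genes took 0.104% to 0.340% of them. The lowest count of any of these genes in any library was 22. Melanocyte markers were abundant throughout, at a summed 9366 to 15290 CPM for 8 genes (CPM being a gene's counts relative to the scaled total of its library), whereas 13 markers of other cell types summed to 31.5 to 144 CPM. Mitochondrial genes took 5.49% to 26.97% of the counts.

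The library labelled FAKi day 7 replicate 1 stood apart from its group. Over 17395 genes its counts differed from those of FAKi day 14 replicate 1 by a chi-square of 1.65 per gene, where sampling alone gives 1. This was the smallest value among all pairs of libraries, the smallest within a group being 3.09, and against its own 2 replicates it gave 79.9 and 76.9. The library labelled DMSO day 21 replicate 3 gave 153 and 117 against its own group. It gave 13.9 against DMSO day 3 replicate 3, 18.1 against DMSO day 3 replicate 2 and 36.9 to 52.2 against the FAKi libraries of day 21. Its column name holds both 7 and 21, while its title reads DMSO day 21. The library labelled DMSO day 3 replicate 1 gave 150 and 265 against its own group and 9.95 against DMSO day 0 replicate 3. Against the FAKi libraries of day 3 it gave 18 to 27.1, where DMSO day 3 replicates 2 and 3 gave 94.4 to 187. Which of the DMSO libraries of day 3 is unlike its label cannot be told from these values. None of the libraries that stood apart was moved to another group. For FAKi against DMSO on days 3, 7 and 21, the counts of the 45 genes past a threshold and the ratios of their summed levels are given with and without them.

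The summed level of the 45 genes ran differently over time in DMSO and FAKi. Values below are CPM scaled by the trimmed mean of M-values (TMM) over all 27 libraries, in the order of replicates 1, 2 and 3. At day 0 the DMSO cells stood at 1116, 1091 and 1126 CPM. On day 3 DMSO gave 1346, 1209 and 1296 CPM and FAKi 1570, 1936 and 1763 CPM, with no overlap between the groups. On day 7 DMSO gave 1150, 1385 and 1337 CPM, and the FAKi libraries 3381, 1159 and 1062 CPM. The library labelled FAKi day 7 replicate 1 therefore held nearly the whole spread of that day. On day 14 both treatments were high, with DMSO at 2066, 1993 and 1940 CPM and FAKi at 3393, 3230 and 3251 CPM. On day 21 DMSO gave 1632, 1561 and 1240 CPM and FAKi fewer, 1060, 1053 and 1007 CPM, again without overlap.

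**Figure D1:**
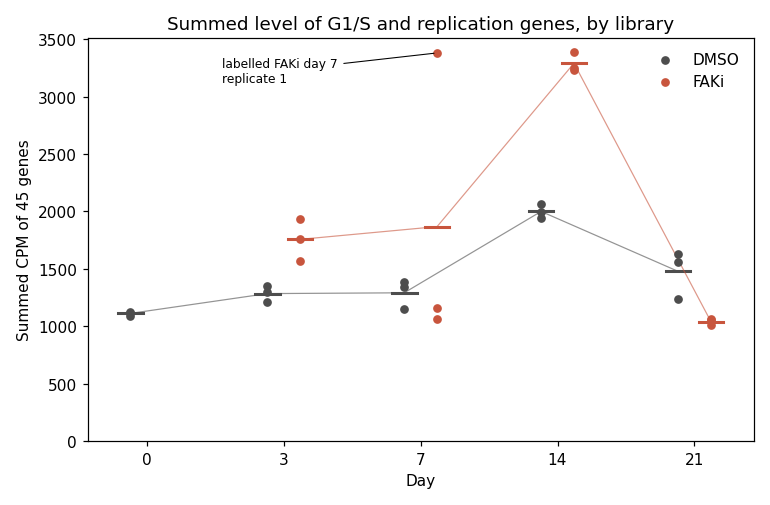
Summed CPM of the 45 genes (y axis, TMM-scaled) in each of the 27 libraries by day (x axis, evenly spaced), with DMSO in grey and FAKi in red. Points are libraries and bars group means; the 3 FAKi libraries of day 14 lie at 3230 to 3393 CPM, the library labelled FAKi day 7 replicate 1 lies among them at 3381 CPM, and the 3 FAKi libraries of day 21 lie at 1007 to 1060 CPM.

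The ratio of FAKi to DMSO in this sum was 1.37 on day 3, 1.65 on day 14 and 0.704 on day 21. An exact two-sided permutation test of 3 against 3 libraries gave p = 0.1 on each of these days, the smallest value that the design allows, and p = 0.9 on day 7. On day 7 the ratio was 1.45 with all libraries and 0.861 without the library labelled FAKi day 7 replicate 1, so 1 library decided its direction. The day 3 ratio was 1.40 without the library labelled DMSO day 3 replicate 1, and the day 21 ratio 0.652 without the library labelled DMSO day 21 replicate 3. On day 21 the mitochondrial share also differed, at 5.49%, 5.49% and 9.75% in DMSO and 10.7%, 10.7% and 11.2% in FAKi, and its part in the ratio was not tested. With library totals as the only scaling the day 21 ratio was 0.823, and with mitochondrial genes left out of the totals 0.860. Fewer cells in S phase and less replication RNA per cell cannot be told apart in bulk libraries.

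Most single genes had the same highest group as the sum, while the lowest group varied more between them. By group mean, 43 of the 45 genes were highest in FAKi day 14, where 14.1% of 16981 genes with a mean of at least 1 CPM had their highest group mean. The exceptions were CDT1 and TIPIN, highest in DMSO day 21. The lowest group was FAKi day 21 for 23 genes, against 15.8% of all genes, and DMSO day 0 for 14 genes, against 5.9% of all genes. Without the 3 libraries that stood apart 42 genes were highest in FAKi day 14 (13.5% of all genes) and 3, CDT1, TK1 and TIPIN, in DMSO day 21, while the lowest group was FAKi day 21 for 20 genes (11.8%), DMSO day 0 for 8 (4.92%) and FAKi day 7 for 8 (8.17%). The ratio of the highest to the lowest group mean ran from 2.06 for PRIM1, the catalytic primase subunit, to 13.0 for CLSPN, which encodes the fork checkpoint mediator claspin. Next to CLSPN stood RRM2, the small subunit of ribonucleotide reductase, at 8.67, and the helicase activation factor MCM10 at 6.19. Per kilobase of counted exon the most abundant of the genes was PCNA at 76.8 CPM per kb over the 27 libraries, ahead of MCM7 at 54.5 and MCM3 at 51.6 CPM per kb.

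**Figure D2:**
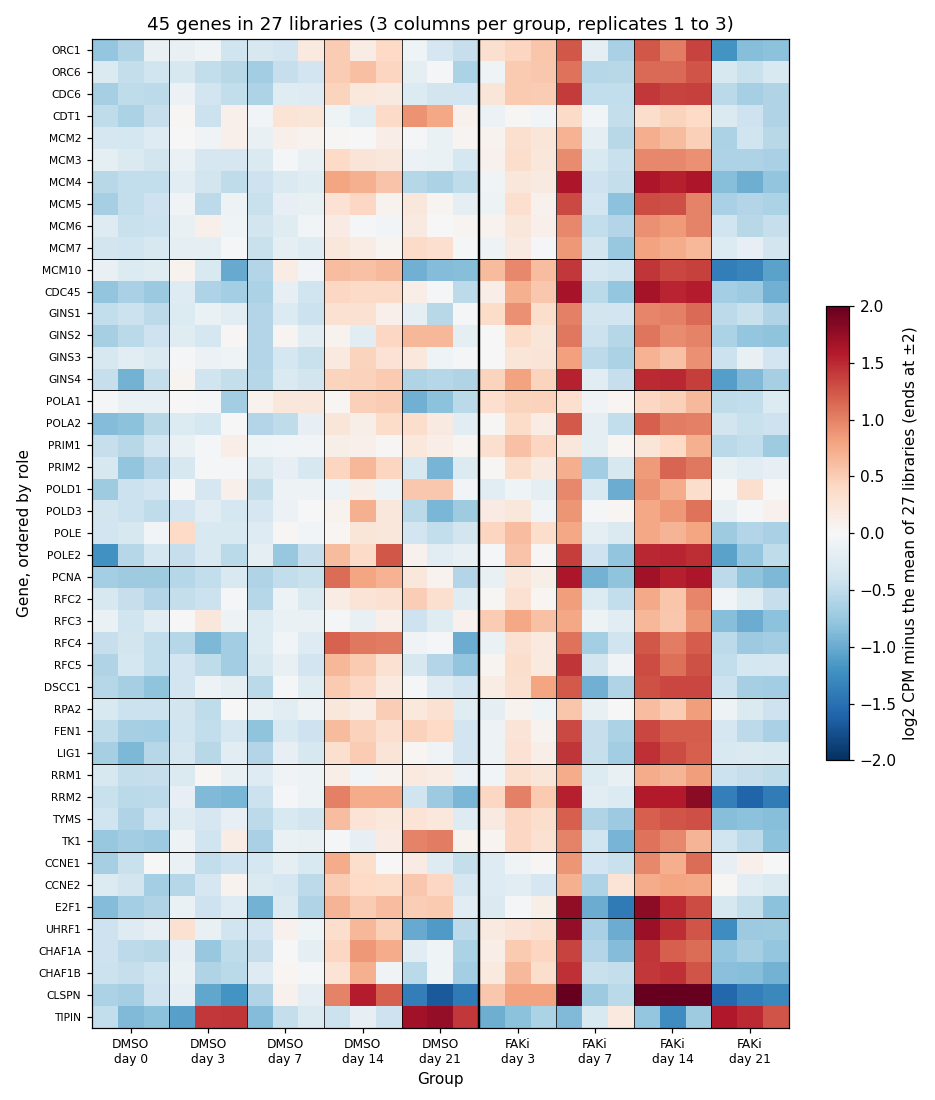
Each row is a gene, ordered by role from origin licensing at the top to fork checkpoint at the bottom, and each column a library (3 per group, DMSO left of the thick line, FAKi right). Colour is log2 CPM minus the gene's mean over 27 libraries; the FAKi day 14 columns and the library labelled FAKi day 7 replicate 1 are red for nearly all genes, and TIPIN alone is red in all 6 libraries of day 21.

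The promoters were examined because the genes moved together and E2F is a known regulator of the class. RefSeq promoter windows (GRCh38.p14, 250 bases before to 50 after the start site) were matched for 38 of the 45 genes. The words searched on both strands were TTTGGCGC, TTTCCCGC, TTTCGCGC and TTTGCCGC, overlapping matches counted. At least 1 stood in 20 of 38 windows (52.6%), against 908 of 27305 windows of all genes (3.33%). With the 250 bases before the start alone, the counts were 14 of 38 (36.8%) and 2.79% of all windows. Origin licensing genes held a match in 6 of 8 windows, and deoxynucleotide supply genes in 1 of 4, that of TYMS.

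Stretches of 5 promoters are given for genes whose levels are described below, because they show how differently the same words are placed. Capitals mark the matches, and each stretch is written 5′ to 3′ on the strand of the gene.
E2F1 (chr20:33686386-33686475, minus strand): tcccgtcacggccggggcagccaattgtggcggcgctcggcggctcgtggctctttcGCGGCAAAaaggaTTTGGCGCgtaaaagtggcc
MCM6 (chr2:135876514-135876603, minus strand): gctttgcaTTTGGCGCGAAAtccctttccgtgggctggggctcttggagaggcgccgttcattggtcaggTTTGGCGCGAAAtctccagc
PCNA (chr20:5126633-5126722, minus strand): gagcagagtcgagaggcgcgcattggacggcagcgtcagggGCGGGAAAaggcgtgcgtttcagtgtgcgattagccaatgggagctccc
TYMS (chr18:657563-657652, plus strand): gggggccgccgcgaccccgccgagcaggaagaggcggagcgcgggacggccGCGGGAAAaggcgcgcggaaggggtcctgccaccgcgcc
CDT1 (chr16:88803699-88803788, plus strand): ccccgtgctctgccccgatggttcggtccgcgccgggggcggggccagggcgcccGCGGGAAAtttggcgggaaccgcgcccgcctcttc
MCM6 held 4 matches as 2 overlapping pairs, E2F1 held 2, and PCNA, TYMS and CDT1 held 1 each. CDT1, whose level peaked in another group, carried the same word as PCNA and TYMS, and a link between word and level was not tested. A match describes the letters in the window and does not show that a factor binds there.

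The word TTTGAA, the CHR element known from promoters of genes expressed in G2 and mitosis, was distributed differently. It stood in 1 of 38 windows of the 45 genes (2.63%), in 17 of 24 windows matched for 30 mitotic genes (70.8%) and in 15.4% of all windows. The mitotic genes held an E2F word in 3 of 24 windows (12.5%), and 40 other replication and S phase genes in 8 of 31 (25.8%).

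**Figure D3:**
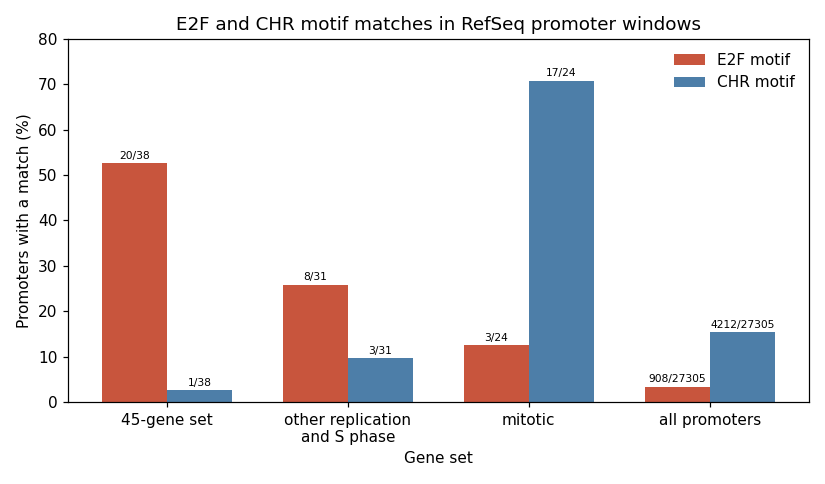
Share of RefSeq promoter windows (y axis, percent) with at least 1 match to the E2F words (red) or the CHR word (blue) in 4 gene sets, with the number of windows above each bar. The 45-gene set reaches 52.6% for E2F and 2.63% for CHR, and the mitotic set 12.5% and 70.8%.

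On day 3 the genes lay higher in FAKi, but 0 of them, and 0% of all genes, passed the test. Fold changes were fitted with edgeR's quasi-likelihood test on the 6 libraries of each day. A gene is said to rise or fall where its p adjusted by Benjamini-Hochberg over all genes was at most 0.05, and to be called where its log2 fold change also exceeded 1 in size. The median log2 fold change of the 45 genes on day 3 was 0.51, against -0.02 over 22846 genes, and 43 of 45 values were above 0. At an unadjusted p under 0.05 stood 30 of the 45 genes, against 23.8% of all genes. The groups did not overlap, with FAKi higher, for 31 of the 45 genes, against 15.8% of all genes.

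CLSPN showed the largest value on day 3. Its CPM was 8.38, 4.64 and 4.15 in DMSO and 13.8, 16.5 and 16.6 in FAKi. Every FAKi library exceeded every DMSO library, and the log2 fold change was 1.46 ± 0.27 (SE), with an adjusted p of 0.0945 by edgeR. RRM2 gave 27.4, 16.7 and 16.3 CPM in DMSO and 41.1, 61.8 and 44.4 CPM in FAKi, a log2 value of 1.31 ± 0.24 (SE). For both genes the DMSO library with the highest level was the library labelled DMSO day 3 replicate 1. The fit without it keeps DMSO replicates 2 and 3, whose counts lay further from those of FAKi day 3. In that fit 24 of the 45 genes rose and 1 fell (TIPIN), where 32.7% of all genes passed in either direction. The 7 genes called higher were then CLSPN at 1.85 ± 0.20 (SE), RRM2 at 1.59, MCM10 at 1.38, CDC45 at 1.15, GINS4 at 1.03, CHAF1A at 1.02 and CHAF1B at 1.00. The share of all genes past both thresholds was not computed for this fit. Leaving out DMSO replicate 2 or DMSO replicate 3 instead gave 0 past the adjusted p, where 0% and 0.00901% of all genes passed. Mitochondrial shares on this day were 18.1%, 9.59% and 8.61% in DMSO and 16.8%, 18.7% and 17.4% in FAKi. Their part in these differences was not tested. DESeq2 on all 6 libraries gave 18 genes higher and 1 lower, where 8.05% of all genes passed, and 1 model of all 27 libraries gave 8 higher and 1 lower, where 9.14% passed.

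Among the genes of origin licensing none passed on day 3, and differences between genes were not tested. CDC6, which loads the helicase, had a log2 value of 0.77 ± 0.16 (SE), and its loading partner CDT1 one of 0.06 ± 0.17 (SE). The helicase subunits ranged from 0.18 for MCM7 to 0.51 for MCM3 and MCM4.

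On day 7 no gene rose or fell by edgeR, and none had an unadjusted p under 0.05, where 8.77% of all genes did. DESeq2 likewise passed none, with 3 genes under an unadjusted 0.05, and 1 model of all 27 libraries passed none, with 22 under it. When no genes were filtered out, edgeR passed 11 of the 45 genes, all higher, where 1.33% of all genes passed, and 27 were under an unadjusted 0.05. The test passed 0.0269% of 22299 genes on that day, and the median of the 45 log2 values was 0.52. Without the library labelled FAKi day 7 replicate 1 the median was -0.20 and 1 gene fell, UHRF1, a reader of hemimethylated DNA at replicated chromatin, at -0.67 ± 0.17 (SE, edgeR adjusted p = 0.0398), where 2.96% of all genes passed. E2F1 illustrates the split, at 9.48, 14.9 and 12.04 CPM in DMSO and at 62.5, 9.20 and 6.87 CPM in the libraries labelled FAKi. PCNA did the same, with 260.6 CPM in replicate 1 beside 44.1 and 48.7 CPM in the other FAKi libraries and 56.1 to 62.0 CPM in DMSO.

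On day 14 most of the genes rose with FAKi. Of the 45 genes 36 rose with FAKi and 0 fell, where 6.35% of all genes rose and 6.1% fell, and the median log2 fold change was 0.73, against -0.01 over all 23443 genes. FAKi exceeded DMSO in every library for 40 genes, against 14.9% of all genes. By role, 9 of 10 origin licensing genes rose, 5 of 6 helicase activation genes, 6 of 8 polymerase and primase genes, 5 of 6 clamp and loader genes, 2 of 3 single-strand binding and Okazaki fragment genes, all 4 deoxynucleotide supply genes, 1 of 3 G1/S regulators and 4 of 5 chromatin and checkpoint genes. When 1 model was fitted to all 27 libraries, 9 of the 45 genes passed, all higher, where 5.51% of all genes passed. The same model passed 9 of the 45 genes on day 3 and 9 on day 21.

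The 3 genes called on day 14 were CDC45, CDC6 and CHAF1B, where 0.614% of all genes were called higher. CDC45, a subunit of the active helicase, stood at 24.7, 24.4 and 24.2 CPM in DMSO and at 59.4, 53.8 and 55.4 CPM in FAKi. The groups lay far apart beside the spread within them, and the log2 fold change was 1.20 ± 0.11 (SE, edgeR adjusted p = 1.65e-07). CDC6 gave 37.9, 32.2 and 31.6 CPM in DMSO and 73.97, 70.97 and 71.6 CPM in FAKi, a log2 fold change of 1.09 ± 0.11 (SE). CHAF1B, a subunit of the chromatin assembly factor that deposits histones behind the fork, gave 16.7, 22.6 and 13.2 CPM in DMSO and 36.8, 37.9 and 33.0 CPM in FAKi, with a log2 fold change of 1.04 ± 0.15 (SE). It went under the fold threshold without DMSO replicate 1 or 3 or without FAKi replicate 2. The number of genes called was 7 without DMSO replicate 2, 5 without DMSO replicate 3, 9 without FAKi replicate 3 and 2 without FAKi replicate 2. In these fits 10.3%, 10.6%, 10% and 6.1% of all genes passed the adjusted p, and the share called was not computed.

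The MCM genes rose together on day 14, from 0.56 for MCM2 to 0.94 for MCM5 on the log2 scale. MCM4 stood at 219, 208 and 188 CPM in DMSO and at 389.6, 372 and 390.2 CPM in FAKi (0.90 ± 0.09, SE). MCM6, with its 2 pairs of E2F words, stood at 38.8, 33.7 and 33.0 CPM in DMSO and at 64.5, 61.9 and 68.6 CPM in FAKi (0.88 ± 0.11, SE). PCNA rose from 184, 147 and 137 CPM to 271, 249 and 260.2 CPM (0.73 ± 0.11, SE), the DMSO libraries spreading more than the FAKi ones. The thymidylate synthase gene TYMS rose from 94.0, 74.2 and 71.2 CPM to 140.4, 147 and 149.9 CPM (0.87 ± 0.11, SE).

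E2F1 itself rose on day 14, from 29.2, 26.1 and 27.9 CPM in DMSO to 63.4, 51.5 and 45.1 CPM in FAKi (0.94 ± 0.13, SE). The cyclin E genes, which encode the activating partners of CDK2, gave log2 values of 0.54 ± 0.20 (SE) for CCNE1 and 0.34 ± 0.12 (SE) for CCNE2 and did not pass, with adjusted p by edgeR of 0.0787 and 0.0783. Low values on that day belonged to RFC4, a clamp loader subunit at 0.07 ± 0.10 (SE), and POLA1, the catalytic subunit of polymerase alpha at 0.16 ± 0.14 (SE). RFC4 was already at 83.7 to 92.2 CPM in DMSO day 14, inside the 82.6 to 96.5 CPM of FAKi.

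**Figure D4:**
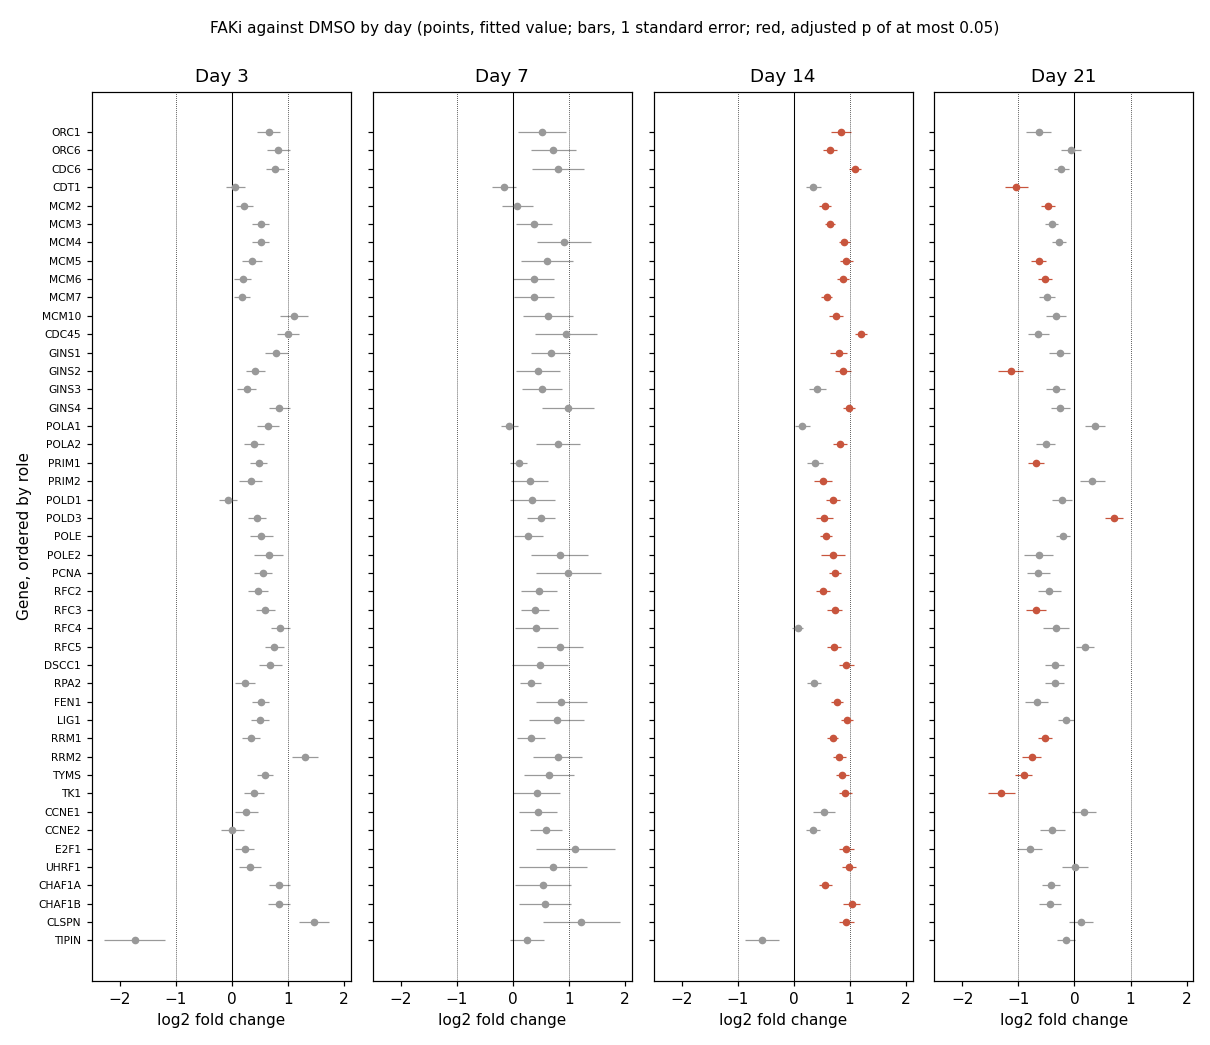
Fitted log2 fold change of FAKi against DMSO (x axis) for each of the 45 genes (rows, by role) on days 3, 7, 14 and 21, with bars of 1 standard error and red where the adjusted p was at most 0.05. The points of day 14 lie right of 0 except TIPIN and 36 are red, while on day 21 38 of 45 lie left of 0 and 12 are red.

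By day 21 the order of the treatments had turned for most of the genes. Of the 45 genes 11 fell with FAKi and 1 rose, where 6.32% of all 23212 genes fell and 5.27% rose, and the median log2 fold change was -0.41 with 38 of 45 values under 0. The groups did not overlap, with FAKi lower, for 26 genes, against 17.1% of all genes. All 4 genes of deoxynucleotide supply fell, as did 4 of 10 origin licensing genes (CDT1, MCM2, MCM5 and MCM6), GINS2, PRIM1 and RFC3. The 3 genes called were TK1, GINS2 and CDT1, all lower, where 2.71% of all genes were called lower and 2.58% higher.

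TK1 encodes thymidine kinase of the salvage pathway. It stood at 74.2, 76.02 and 39.2 CPM in DMSO and at 28.2, 26.1 and 21.1 CPM in FAKi. The library labelled DMSO day 21 replicate 3 lay between the other DMSO libraries and the FAKi ones, and the log2 fold change was -1.30 ± 0.25 (SE, edgeR adjusted p = 0.0184). The helicase activation gene GINS2 had the same shape, with 33.9, 34.0 and 18.7 CPM in DMSO and 13.9, 12.6 and 12.2 CPM in FAKi (-1.14 ± 0.23, SE). CDT1 gave 89.2, 81.99 and 50.6 CPM in DMSO and 38.9, 35.9 and 31.6 CPM in FAKi (-1.04 ± 0.20, SE). TYMS fell from 74.3, 71.5 and 51.4 CPM to 34.2, 34.8 and 34.3 CPM (-0.91 ± 0.15, SE), the FAKi libraries lying close together.

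The gene that rose on day 21 was POLD3, an accessory subunit of polymerase delta. It stood at 11.2, 8.64 and 9.96 CPM in DMSO and at 14.7, 15.7 and 17.2 CPM in FAKi (0.70 ± 0.16, SE, edgeR adjusted p = 0.0313). CLSPN was low in both treatments and the groups overlapped, at 2.95 to 3.63 CPM in DMSO and 3.21 to 3.91 CPM in FAKi, with a log2 value of 0.11 ± 0.21 (SE).

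The day 21 calls depended on single libraries. Leaving out any 1 of the libraries other than the library labelled DMSO day 21 replicate 3 left 0 of the 45 genes past the adjusted p by edgeR. Of all genes 0.229% to 2.19% passed in these fits, against 11.6% with all libraries. Among the 45 genes 17 to 21 stood at an unadjusted p under 0.05, with medians of -0.43 to -0.38. Without the library labelled DMSO day 21 replicate 3, 27 genes fell and 2 rose (POLD3 and POLA1), where 48.5% of all genes passed. TK1, GINS2, CDT1, TYMS and E2F1 were then called lower, at -1.55, -1.36, -1.24, -1.05 and -1.0015. The share of all genes past both thresholds was not computed for this fit. Deviations of same-numbered DMSO and FAKi libraries from their group means correlated on this day, at r = 0.443, 0.128 and 0.658. With the replicate number as a block 20 genes fell and 1 rose, where 29.9% of all genes passed. DESeq2 gave 18 lower and 1 higher, where 20.6% of all genes passed, and 1 model of all 27 libraries 8 lower and 1 higher, where 19.2% passed.

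**Figure D5:**
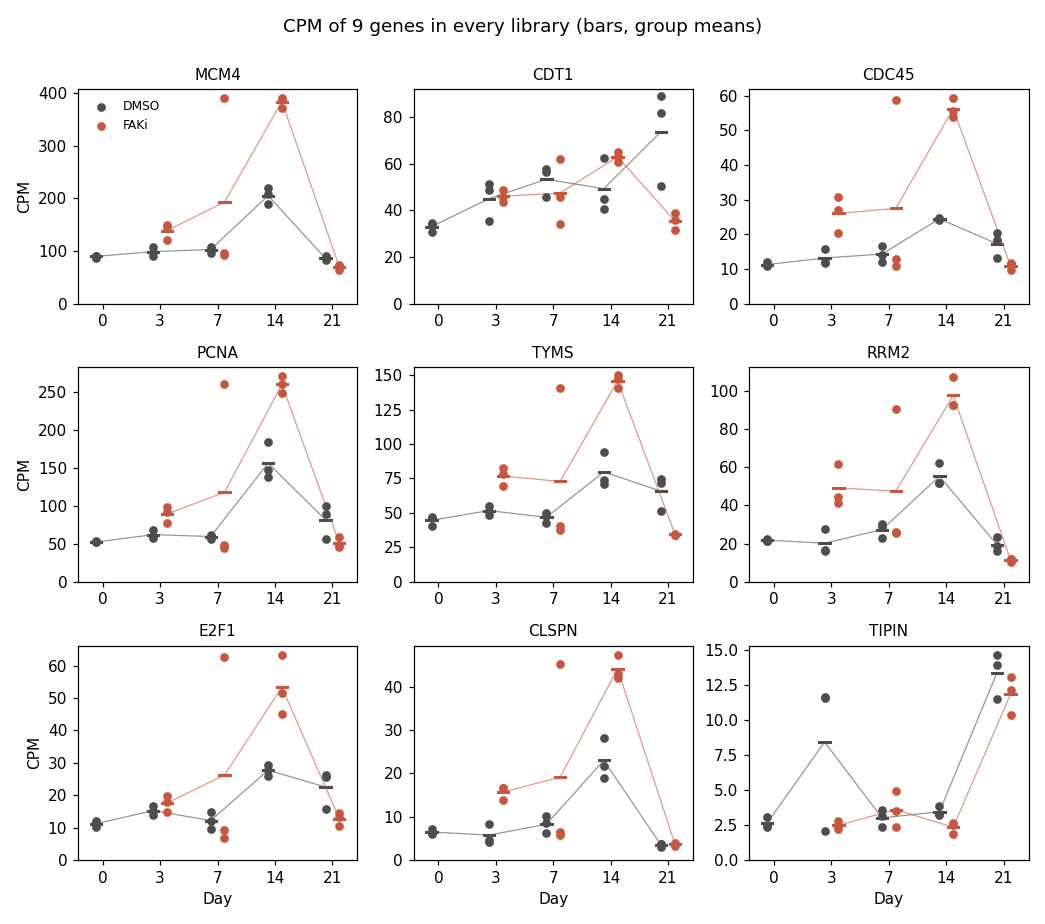
CPM (y axis, from 0) of 9 genes in every library by day (x axis, evenly spaced), DMSO grey and FAKi red, with bars at group means. MCM4, CDC45, PCNA, TYMS, RRM2, E2F1 and CLSPN reach their highest FAKi mean on day 14, CDT1 reaches its highest mean in DMSO day 21, and TIPIN is above 10 CPM in 8 libraries only.

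An interaction term over the 12 libraries of days 14 and 21 tested whether the response to FAKi itself shifted between these days. For 37 of the 45 genes the effect became lower and for 0 higher, where 7.24% of 25869 genes became lower and 5.5% higher. Of these, 30 exceeded a log2 difference of 1, against 3.89% of all genes (and 3.54% in the other direction), and the median difference was -1.11, against 0.02 over all genes. Leaving out any 1 of the 12 libraries gave between 28 and 33 genes past both thresholds. TK1 changed most, by -2.26 ± 0.29 (SE), followed by GINS2 at -2.05, CDC45 at -1.88, TYMS at -1.80 and E2F1 at -1.77. All 10 origin licensing genes, all 6 helicase activation genes and all 4 deoxynucleotide supply genes were among the 37. The genes that did not pass were CCNE1, CCNE2, POLA1, POLD3, PRIM2, RFC4, RFC5 and TIPIN.

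From day 3 to day 21 the effect became lower for 23 genes and higher for 0, where 2.02% of 25389 genes became lower and 0.91% higher, and 18 exceeded a log2 difference of 1, against 1.55% of all genes (0.67% in the other direction). RRM2 changed by -2.09 ± 0.31 (SE) and TYMS by -1.52 ± 0.20 (SE). Without single libraries the count past both thresholds ran from 4 to 24, with the highest count without the library labelled DMSO day 21 replicate 3 and the lowest without FAKi day 3 replicate 2 or FAKi day 21 replicate 2. It was 5 without DMSO day 3 replicate 2, without FAKi day 3 replicate 3 or without FAKi day 21 replicate 3, 6 without DMSO day 21 replicate 2, 9 without FAKi day 21 replicate 1 and 10 without DMSO day 21 replicate 1. With the replicate number as a block it was 5 (0.697% of all genes passed the adjusted p). The comparisons of day 14 and of day 3 use the same day 21 libraries and are not independent.

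The levels also differed between days within each treatment. The group means of the mitochondrial share differed between days too, from 6.91% on day 21 to 25.2% on day 14 in DMSO and from 10.9% on day 21 to 21.5% on day 14 in FAKi, and their part in the differences was not tested. Within DMSO, 42 of 45 genes changed over days 0 to 21 in an F test on 15 libraries, where 49.9% of 26193 genes did, and the largest differences between day means exceeded 1 on the log2 scale for 23 genes, against 32.9% of all genes. The 3 genes that did not pass were MCM2, POLE and RFC3. Without the library labelled DMSO day 3 replicate 1 the counts were 43 past the adjusted p and 23 also over 1, where 53.3% of all genes passed, and without the library labelled DMSO day 21 replicate 3 they were 42 and 24, where 56.8% passed. Within FAKi, 44 of 45 changed over days 3 to 21 on 12 libraries, where 45.1% of 24969 genes did, and 40 exceeded a log2 difference of 1, against 24.2%. POLD1 did not pass. Without the library labelled FAKi day 7 replicate 1 all 45 passed and 41 exceeded 1, where 58% of all genes passed.

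Between its ends the DMSO course showed a mixed outcome, with 20 genes higher and 4 lower on day 21 than on day 0, where 24.1% of 22259 genes were higher and 20.7% lower. The 4 called genes were TIPIN, TK1, CDT1 and E2F1, all higher, where 13.2% of all genes were called higher. E2F1 lay at the fold threshold, at 1.01, with values of 0.88 to 1.21 when single libraries were left out, and 3 of these 6 settings put it under the threshold. Normalization by relative log expression or upper quartile, DESeq2, the replicate block and 1 model of all 27 libraries each gave 3 called genes. TK1 rose from 22, 22.97 and 22.7 CPM to 74.2, 76.02 and 39.2 CPM (1.48 ± 0.24, SE), and CDT1 from 33.6, 30.8 and 34.6 CPM to 89.2, 81.99 and 50.6 CPM (1.15 ± 0.21, SE). The genes that fell were CLSPN (-0.93), MCM10 (-0.68), POLA1 (-0.67) and UHRF1 (-0.59). Without the library labelled DMSO day 21 replicate 3, 32 genes passed the adjusted p, where 69.7% of all genes passed. Leaving out any 1 of the other libraries gave 10 to 13 genes past it, where 24.4% to 29.1% of all genes passed.

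Within FAKi, 38 genes were lower and 2 higher on day 21 than on day 3, where 27% of 22707 genes were lower and 27.8% higher. The largest falls were those of RRM2, from 41.1, 61.8 and 44.4 CPM to 11.97, 10.1 and 11.6 CPM (-2.12 ± 0.14, SE), CLSPN at -2.11 ± 0.16 (SE) and MCM10 at -1.99 ± 0.15 (SE). In all, 16 genes were called lower, against 10.4% of all genes, and 14 to 20 were called in either direction without single libraries. The genes that rose were TIPIN and POLD1.

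The value listed for TIPIN, which encodes a fork protection factor, cannot be read as that gene alone. Its counted transcript (chr15:66379270-66386707, hg38, minus strand) contains the ribosomal protein pseudogene RPL9P25 (chr15:66379337-66379915) on the same strand, and 79.4% of its exon bases in GENCODE 44 lie under it. The TIPIN and RPL9P25 counts were identical in 20 of 27 libraries and differed by at most 4 counts in the others. TIPIN stood at 10.4 to 14.7 CPM in 8 libraries, namely DMSO day 3 replicates 2 and 3 and all 6 of day 21, and at 1.83 to 4.93 CPM in the other 19. The same 8 libraries had mitochondrial shares of 5.49% to 11.2% and the other 19 shares of 16.8% to 26.97%. All changes given for TIPIN therefore describe these shared counts.

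Other members share exon bases with neighbours to a lesser degree. POLA2 overlaps a readthrough gene on its strand over 55.8% of its exon bases, and PRIM1 overlaps same-strand neighbours over 26.7% of its own. On the opposite strand, TYMS overlaps ENOSF1 and TYMSOS over 66.5%, CCNE2 overlaps INTS8 over 49.0%, and GINS4 and MCM2 overlap other genes over 32.5% and 32.4%. The header of the count table names no strand option, so reads of such pairs may not be separated.

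Other genes of the cell cycle were read from lists chosen by function, also with earlier results of these data known. Of 40 other replication and S phase genes 21 rose on day 14 and 0 fell, where 6.35% of all genes rose and 6.1% fell, and on day 21, 2 rose and 3 fell, where 5.27% of all genes rose and 6.32% fell. EXO1, an exonuclease of replication and repair, rose on day 14 by 1.23 ± 0.10 (SE) on the log2 scale. The change of effect from day 14 to day 21 was lower for 17 of the 40 and higher for 0, against 7.24% and 5.5% of all genes.

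On day 3 the summed level of 30 mitotic genes was 1628, 1305 and 1203 CPM in DMSO and 2084, 2618 and 2365 CPM in FAKi, on a day when 0% of all genes passed. Of these genes 16 rose on day 14 and 0 fell, none of them with a log2 fold change over 1, and on day 21, 16 fell and 0 rose, 8 of them called. Of all genes 6.35% rose on day 14, 6.32% fell on day 21 and 2.71% were called lower on day 21. CCNB1, the mitotic cyclin B1, fell by 1.20 on the log2 scale on day 21 (SE 0.13), and UBE2C, an E2 enzyme of the anaphase-promoting complex, fell by 1.41 (SE 0.15). The summed mitotic level was 1757, 1926 and 1943 CPM in DMSO and 2192, 2247 and 2311 CPM in FAKi on day 14. On day 21 it was 1229, 1197 and 1226 CPM in DMSO and 745, 731 and 769 CPM in FAKi, a gap wider than the spread in either group. The library labelled DMSO day 21 replicate 3 lay with its group in this sum, unlike in that of the 45 genes. It also lay between DMSO day 3 replicates 3 and 2, at 1203 and 1305 CPM. The lists share CCNA2, which fell on day 21 by 0.98 on the log2 scale (SE 0.12).

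Of 15 CDK inhibitors, D cyclins and pocket proteins 14 could be tested. For these and the marker lists the shares of all genes were 6.35% rising and 6.1% falling on day 14, and 5.27% rising and 6.32% falling on day 21. On day 14, 2 rose and 4 fell, among them the CDK inhibitor CDKN1C by -1.63 ± 0.27 (SE) and, in the other direction, the D cyclin CCND3 by 0.90 ± 0.16 (SE). On day 21, 4 fell and 0 rose, including CCND1 by -0.99 ± 0.12 (SE), CDKN1C by -1.68 ± 0.22 (SE) and CDKN1A, the p21 gene, by -0.84 ± 0.11 (SE). Melanocyte markers moved beside these groups, with 2 of 8 rising on day 14 (PMEL and TYR) and 2 on day 21 (TYR and DCT) and none falling. Of the other cell type markers, 1 of 6 tested fell on day 14 (CD68) and 2 of 7 on day 21 (CD68 and LUM), the remaining markers having under 20 counts over all libraries of the day, while their summed level on day 21 was 66.6 to 82.1 CPM in DMSO and 31.5 to 35.4 CPM in FAKi. The part of these markers in the results was not tested.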

How the data were processed

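Counts per gene in 27 libraries of 92.1 cells (TruSeq Stranded mRNA kit per the labels) were used as deposited. The authors trimmed reads with Trim Galore, checked them with FastQC 0.11.8, aligned them with STAR 2.5.3a and counted exon reads per gene with HOMER as raw counts (hg38, GENCODE 39, per the file headers); no count column was left without a sample. The authors' submission also names DESeq2. From the counts, log2 fold changes were computed with edgeR 4.0.16 (R 4.3.3; quasi-likelihood, TMM, at least 20 counts in total over the libraries of a fit, Benjamini-Hochberg over all genes tested), by day without a replicate term. Levels are CPM with TMM scaling over all libraries. Calls required an adjusted p of at most 0.05 and a log2 value over 1 in size. DESeq2 1.42.0, other scalings and filters, a single fit, a replicate block and leaving out each library were alternatives. For these fits the share of all genes was computed at the adjusted p alone, not past both thresholds. The fits were tested on simulated counts in which no library stood apart, unlike in these data. Same-numbered DMSO and FAKi libraries of day 21 correlated in their deviations from group means (r = 0.443, 0.128 and 0.658). Whether they are pairs is not given by the labels and cannot be settled by these values. On day 3 r was 0.000611 to 0.107, on day 7 -0.144 to -0.0714 and on day 14 -0.026 to 0.00956. Between DMSO day 3 and DMSO day 21, each with a library that stood apart, r was -0.491, -0.2 and -0.749. Promoters were matched by symbol in RefSeq. The genes and lists were chosen with earlier results of these data known. Any of the 45 genes could be named, and of other lists at most 3 genes per comparison by smallest p.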

Additional observations from a re-analysis of the deposited data

Results flagged for a closer look

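The effect of FAKi differed between days by an interaction test in edgeR. From day 14 to day 21 it changed for 30 of the 45 genes past both thresholds, all towards lower values on day 21, and the median log2 fold change went from 0.73 to -0.41. Of all genes 3.89% changed in that direction past both thresholds, and the count was 28 to 33 with single libraries left out. From day 3 to day 21 it changed for 18 genes, all towards lower values, from a median of 0.51, against 1.55% of all genes. That count was 4 to 24 with single libraries left out and 5 with the replicate block. Both differences use the same day 21 libraries.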

How the results depend on the processing

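Counts below are of the 45 genes with an adjusted p of at most 0.05 and a log2 value over 1 in size. On day 3 the count was 0, and it was 4 when no genes were filtered out, 4 in 1 model of all 27 libraries, and 5 with DESeq2; single libraries left out gave 0 to 8. On day 7 it was 2 with no filter, against 0. With the adjusted p alone the counts were 36 on day 14, 12 on day 21, 24 for DMSO day 21 against day 0, 40 for FAKi day 21 against day 3 and 42 for DMSO over time. In the same order 12.4%, 11.6%, 44.9%, 54.7% and 49.9% of all genes passed. Leaving out single libraries gave 2 to 9 on day 14, 0 to 5 on day 21, 3 to 7 for DMSO day 21 against day 0, and 4 to 24 for the change from day 3 to day 21. That change gave 9 in 1 model of all 27 libraries and 5 with the replicate block. The replicate block moved no other of these counts by over 1.5 times. At the adjusted p alone it moved the day 21 count from 12 to 21, while the share of all genes went from 11.6% to 29.9%. It moved that of the change from day 3 to day 21 from 23 to 5, while the share of all genes went from 2.93% to 0.697%. On day 7 single libraries left out gave medians of -0.20 to 0.85 and ratios of the sums of 0.861 to 1.76, the lowest of both, past a change of direction, without the library labelled FAKi day 7 replicate 1. The cause of these changes was not tested. Settings applied to medians and to counts at the adjusted p alone, and libraries left out of the sums and of the highest and lowest groups, were chosen after seeing the data.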
